A study of Mus musculus with 6 samples.

Results

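The 9 genes described here, Nbn, Rad50, Atm, Brca1, Palb2, Brca2, Rad51c, Rad52 and Parp1, act in homologous recombination and in the repair of DNA strand breaks. They were chosen by name, with earlier results of these data known. Every probe set whose only annotated gene symbol was one of them was kept, whatever its values. That gave 19 of the 34945 probe sets with 1 gene symbol on the array, a probe set being a group of short probes that read 1 stretch of a transcript. RNA of ovarian secondary follicles, in which an oocyte is enclosed by layers of granulosa cells, was measured on 6 Affymetrix 3' expression arrays. The old group held 3 samples from female C57BL/6J mice of 32 weeks and the young group held 3 samples from female mice of the same strain at 9 weeks. The mice were obtained as specific pathogen free animals, and the labels name no treatment or engineered allele. The follicles had been dissected by hand with needles. The labels call the samples biological replicates. The number of mice or follicles behind each one is not given in the sources read, so the p-values reflect only how far these samples spread.

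When both strands of DNA break, the complex of MRE11, RAD50 and NBN binds the ends and activates the kinase ATM. BRCA1 favours the trimming of the ends, and through PALB2 it brings in BRCA2, which acts on the trimmed single strand so that the intact sister copy can serve as template. RAD51C takes part in the same route, RAD52 anneals single strands, and PARP1 is an early sensor of nicks and breaks that marks proteins with chains of ADP-ribose. Oocytes make and repair programmed breaks in fetal life and then stay arrested for months, and granulosa cells divide, so both kinds of cell in the follicle meet DNA breaks. In RNA of whole follicles, fewer cells of a type and less RNA per cell cannot be told apart.

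Read by their brightest probe sets, Parp1 and Rad52 were lower in old follicles by 0.35 and 0.40 on the log2 scale. The other 7 genes did not pass the test, while dimmer probe sets of Brca1 and Rad51c were lower by about a fold of 2. The mean of all 4 Parp1 probe sets changed by only -0.02 and did not pass (adjusted p = 0.80). A probe set is said to pass the test below where its adjusted p did not exceed 0.05. Of the 19 probe sets, 6 passed as lower in old follicles, or 31.6%, against 13.8% of all probe sets tested. None passed as higher, against 8.95% of all probe sets, and 2, both of Parp1, were higher at an unadjusted p under 0.05. The 6 lower probe sets belonged to 5 genes, and only those of Parp1 and Rad52 were the brightest of their gene. At the study's thresholds, which add a fold of at least 2, 2 probe sets were called lower, 1 of Brca1 and 1 of Rad51c, against 0.552% of all probe sets, and none was called higher, against 0.466%. The median log2 fold change (old minus young) was -0.12 over the 19 probe sets and -0.01 over all probe sets. Samples of the ages did not overlap for 12 of them. The old samples were all below the young ones in 9, or 47.4%, against 23.7% of all probe sets. They were all above in 3, or 15.8%, against 17.6%. The test was limma's moderated test on log2 intensity with Benjamini-Hochberg adjustment over the 34945 probe sets.

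**Figure D1:**
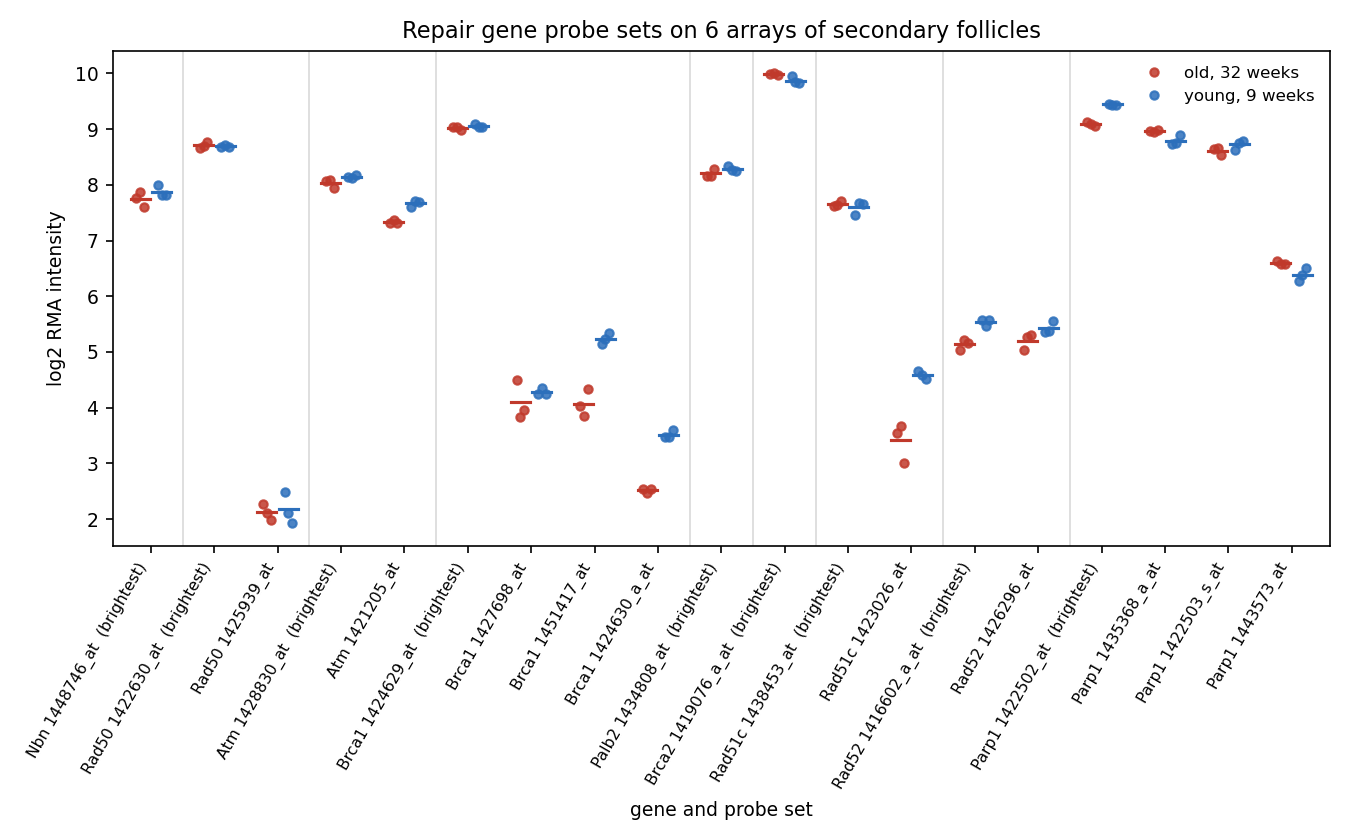
Log2 RMA intensity (vertical axis) of the 19 probe sets, grouped by gene. Each point is an array (old red, young blue) and each short line a group mean. The old means lie 1.17 and 0.99 below the young ones for 1451417_at and 1424630_a_at of Brca1 and 1.17 below for 1423026_at of Rad51c, while the brightest probe sets of these genes differ by -0.04 and 0.06.

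When each gene stood by its brightest probe set, 2 of the 9 genes passed as lower, against 13.3% of the 18193 genes tested, and none was higher, against 10.1%. None reached a fold of 2 as well, which 0.126% of all genes did toward lower and 0.638% toward higher values. The median log2 fold change of the 9 genes was -0.08 and that of all genes was -0.0042. The brightest probe sets lay between the 49.4th and the 95.8th percentile of mean intensity among the 34945 probe sets tested. Brca2 was read at the highest position and Rad52 at the lowest. The levels of different genes are not set against each other, because probe sets differ in how well they bind.

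Of the break-binding complex, neither member passed the test. Nbn, the subunit that ties the complex to ATM, had log2 intensities of 7.77, 7.88 and 7.61 in old follicles, against 7.998, 7.82 and 7.81 in young follicles. The groups overlapped, with a log2 fold change of -0.13 (standard error 0.09, 95% interval from -0.33 to 0.08). Rad50, the ATP-dependent clamp of the complex, was at 8.67, 8.70 and 8.77 in old and at 8.69, 8.71 and 8.67 in young follicles with its brightest probe set. These groups overlapped too, and the interval of the change, from -0.11 to 0.16 around 0.02, left room for at most a fold of 1.12 in the higher direction. The other probe set of Rad50 was among the dimmest on the array, at 2.12 ± 0.14 in old and 2.17 ± 0.28 in young follicles (log2, SD, n = 3 each), at the 3.95th percentile.

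Atm, the kinase that signals breaks to the cell cycle and to p53, fell at its dimmer probe set. That probe set, 1421205_at, was at 7.32, 7.37 and 7.32 in old follicles, against 7.60, 7.71 and 7.70 in young follicles. All old samples were below all young ones, and it changed by -0.33 on the log2 scale (standard error 0.06, adjusted p = 0.0075). The brightest one, 1428830_at, was at 8.07, 8.08 and 7.94 in old and 8.15, 8.12 and 8.18 in young follicles, again without overlap, but its change of -0.12 did not pass (adjusted p = 0.23). The difference of -0.21 between the changes of the probe sets did not pass either (adjusted p = 0.11), so the readings of Atm were not shown to disagree.

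Brca1, which directs broken ends toward recombination, gave a divided reading. Its brightest probe set, 1424629_at, was at 9.03, 9.04 and 8.98 in old follicles, against 9.09, 9.04 and 9.04 in young follicles. All old values were just below the young ones, yet the change was only -0.04 (95% interval from -0.17 to 0.09, adjusted p = 0.64), which bounds a fall at a fold of 0.888. In contrast, 1451417_at was at 4.03, 3.85 and 4.33 in old follicles, against 5.15, 5.24 and 5.33 in young follicles. Its log2 fold change was -1.17 (standard error 0.12, adjusted p = 7.0e-04), so the intensity fell by 55.5% on the linear scale. The dimmest, 1424630_a_at, was at 2.55, 2.46 and 2.55 in old follicles, against 3.46, 3.47 and 3.60 in young follicles. It fell by 0.99 on the log2 scale (standard error 0.07, adjusted p = 9.8e-05), just short of a fold of 2. The last one, 1427698_at, was at 4.50, 3.84 and 3.96 in old and at 4.24, 4.35 and 4.24 in young follicles. Its groups overlapped, with a change of -0.17 and a wide interval from -0.54 to 0.19. Thus 2 of the 4 Brca1 probe sets fell, and neither was the brightest.

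In the array's annotation, 3 of the 4 Brca1 probe sets, the brightest and both that fell, carry the same sequence record. On each array the dimmer value was set against the brightest one. For 1451417_at this difference was -4.95 ± 0.27 in old and -3.82 ± 0.12 in young follicles, and for 1424630_a_at it was -6.50 ± 0.07 in old and -5.55 ± 0.10 in young follicles (log2, SD, n = 3 each). The changes of these probe sets differed from that of the brightest by -1.13 (adjusted p = 0.0013) and -0.95 (adjusted p = 4.3e-04). For 1427698_at the difference of -0.13 did not pass (adjusted p = 0.58). Such differences were common on the array, since 24.2% of the 16752 dimmer probe sets differed from the brightest of their gene in this test, against 5 of the 10 dimmer probe sets here.

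**Figure D2:**
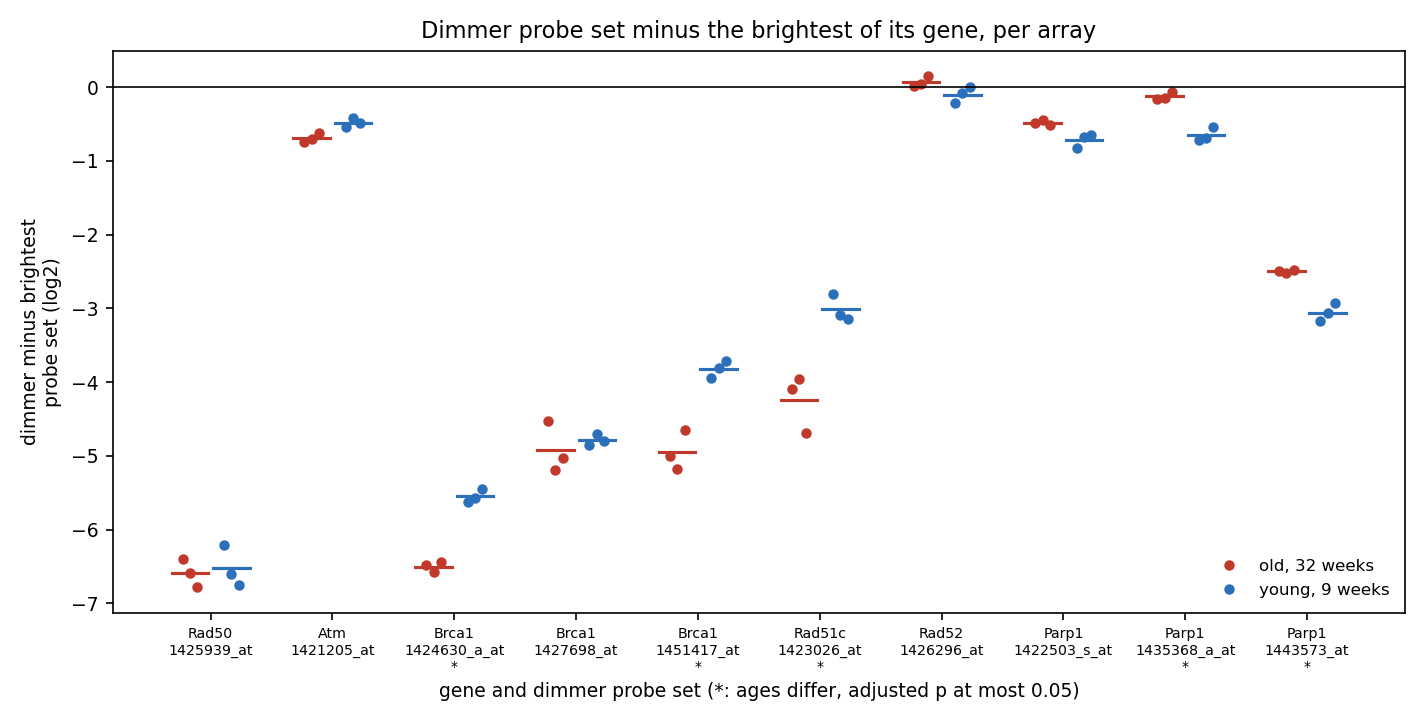
The dimmer probe set minus the brightest one of the same gene on each array (log2, vertical axis) for the 10 dimmer probe sets, old red and young blue, with group means as short lines. A star marks the 5 whose difference between the ages passed the test: 2 of Brca1 and 1 of Rad51c are lower in old follicles, and 2 of Parp1 are higher.

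Palb2 and Brca2, which follow BRCA1 in this route, each had 1 probe set and neither passed. Palb2, the bridge between the BRCA proteins, was at 8.16, 8.16 and 8.29 in old follicles, against 8.34, 8.26 and 8.25 in young follicles. These overlapped, with a change of -0.08 (95% interval from -0.23 to 0.07). Brca2 was at 9.99, 10.003 and 9.97 in old follicles, against 9.96, 9.84 and 9.82 in young follicles. Every old value of Brca2 was above every young one, but the change of 0.11 (standard error 0.06) did not pass (adjusted p = 0.23), and its upper bound was a fold of 1.20.

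Rad51c repeated the division seen in Brca1. The brightest probe set, 1438453_at, was at 7.63, 7.64 and 7.70 in old and at 7.46, 7.67 and 7.65 in young follicles, so the groups overlapped, and the change was 0.06 (95% interval from -0.11 to 0.24). The dimmer one, 1423026_at, was at 3.54, 3.68 and 3.01 in old follicles, against 4.66, 4.59 and 4.51 in young follicles. All 3 old samples were lower, with old replicate 3 farthest down, and the log2 fold change was -1.17 (standard error 0.16, adjusted p = 0.0022). Without old replicate 3 it was -0.98 (adjusted p = 0.0011) and no longer reached a fold of 2. The changes of the Rad51c probe sets differed from each other by -1.24 (standard error 0.19, adjusted p = 0.0027).

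The probe sets that fell most were dim ones. The means of 1424630_a_at and 1451417_at of Brca1 and of 1423026_at of Rad51c lay at the 18.8th, 41.4th and 32.8th percentile of the probe sets tested. The deposited values carry no call of presence, so whether these were above background was not analysed here. With 16 added to each intensity before log2, which damps dim values, they fell by 0.71 for 1451417_at, by 0.33 for 1424630_a_at and by 0.58 for 1423026_at, each still passing the test but none at a fold of 2.

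Control probe sets that compare the 3' with the 5' end of a transcript moved with the same groups. The 3' minus the 5' control probe set of Gapdh was 1.51 ± 0.0048 in old and 0.47 ± 0.014 in young follicles, and that of beta-actin was 2.53 ± 0.050 in old and 1.48 ± 0.033 in young follicles (log2, SD, n = 3 each). The mean over the added poly-A control RNAs was 3.76 ± 0.091 on the old and 2.83 ± 0.10 on the young arrays. In each case an exact two-sided permutation test gave p = 0.1, the smallest that 3 against 3 samples allow. In each control every old array was above every young one. Age thus coincides with this difference between the arrays and cannot be told apart from it. Where each repair gene probe set lies along its transcript was not analysed here. The part of this difference in the changes of the brightest and dimmer probe sets, and of all other genes in this report, was not tested.

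The start of the Brca1 and Rad51c genes is shown because these are the members whose probe sets divided most. Both lie on the minus strand of chromosome 11 (GRCm38.p6), Brca1 at chr11:101488761-101551955 and Rad51c at chr11:87376645-87404954. The windows run from 150 bases before to 10 bases from the annotated start site, 5′ to 3′, as given by RefSeq, and capitals mark a matched motif. For Brca1 the window is chr11:101551946-101552105 and for Rad51c it is chr11:87404945-87405104.
Brca1: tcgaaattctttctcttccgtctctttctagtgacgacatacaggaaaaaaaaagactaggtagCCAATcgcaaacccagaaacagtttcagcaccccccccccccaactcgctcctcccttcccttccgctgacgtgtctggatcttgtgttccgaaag
Rad51c: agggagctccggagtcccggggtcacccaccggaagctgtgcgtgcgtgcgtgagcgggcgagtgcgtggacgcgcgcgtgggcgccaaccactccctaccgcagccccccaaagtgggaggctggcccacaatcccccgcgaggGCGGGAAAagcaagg
The capitals in Brca1 are a CCAAT box, which begins 86 bases before the start site. Those in Rad51c are GCGGGAAA, the reverse complement of the E2F motif TTTCCCGC, which begins 5 bases before it. E2F factors drive genes of the S phase of the cell cycle. On either strand of the 300-base promoter windows in the table, TTTCCCGC stood in 1.07% of 32851 windows, the related TTTGGCGC in 0.514% and CCAAT in 37.4%. Of the 9 genes 7 were in that table, with 8 start sites, since Rad51c has another start site further in, whose window held none of these motifs. An E2F match stood in 2 of the 7, Rad51c and Brca2, and the letters CCAAT on either strand in 3, Brca1, Atm and Palb2. In Palb2 these letters begin 1 base after the start site rather than before it. The windows of Rad52 and Parp1 held no match. A match is a description of letters only, and the files hold no measure of factor binding.

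Rad52, which anneals complementary single strands, was lower at its brightest probe set. The brightest, 1416602_a_at, was at 5.04, 5.22 and 5.15 in old follicles, against 5.57, 5.46 and 5.56 in young follicles. No old value reached a young one, and the change was -0.40 (standard error 0.07, adjusted p = 0.0072), so the intensity fell by 24.0% on the linear scale. The other probe set, 1426296_at, nearly as bright, was at 5.04, 5.27 and 5.30 in old and at 5.36, 5.38 and 5.56 in young follicles. Its groups did not overlap either, but its change of -0.23 did not pass (adjusted p = 0.11), and the difference between the changes was 0.17 (adjusted p = 0.23). By their means over the 6 arrays, both probe sets lay just below 5.38, the median of the 34945 probe sets tested, so a limit there leaves Rad52 untested. Without young replicate 1 the second became the brighter one, and the gene was then at -0.26 and did not pass (adjusted p = 0.13), while 1416602_a_at itself still did (-0.38, adjusted p = 0.026).

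Parp1, the nick and break sensor, fell at its brightest probe set while other probe sets of the gene ran the other way. The brightest, 1422502_at, was at 9.13, 9.10 and 9.05 in old follicles, against 9.45, 9.44 and 9.44 in young follicles. These groups were well apart, and the change was -0.35 on the log2 scale (standard error 0.06, adjusted p = 0.0043), so the linear intensity fell by 21.6%. By contrast, 1435368_a_at was at 8.97, 8.95 and 8.98 in old and at 8.74, 8.75 and 8.89 in young follicles. In 1443573_at the values were 6.63, 6.58 and 6.57 in old and 6.28, 6.37 and 6.51 in young follicles. Every old value was above every young one in both, yet their changes of 0.17 (adjusted p = 0.097) and 0.21 (adjusted p = 0.077) did not pass, although both did so after quantile normalization, at 0.24 and 0.29. The fourth, 1422503_s_at, shares its sequence record with the brightest and was at 8.63, 8.66 and 8.53 in old and at 8.63, 8.76 and 8.79 in young follicles. Its groups overlapped at a change of -0.12.

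The disagreement within Parp1 passed its own test for 2 probe sets. The change of 1435368_a_at exceeded that of the brightest by 0.52 (standard error 0.09, adjusted p = 0.0047) and that of 1443573_at by 0.56 (standard error 0.09, adjusted p = 0.0042). For 1422503_s_at the difference of 0.23 did not pass (adjusted p = 0.088). Averaged over all 4 probe sets, Parp1 changed by -0.02 (adjusted p = 0.80), so its fall rests on the brightest probe set.

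**Figure D3:**
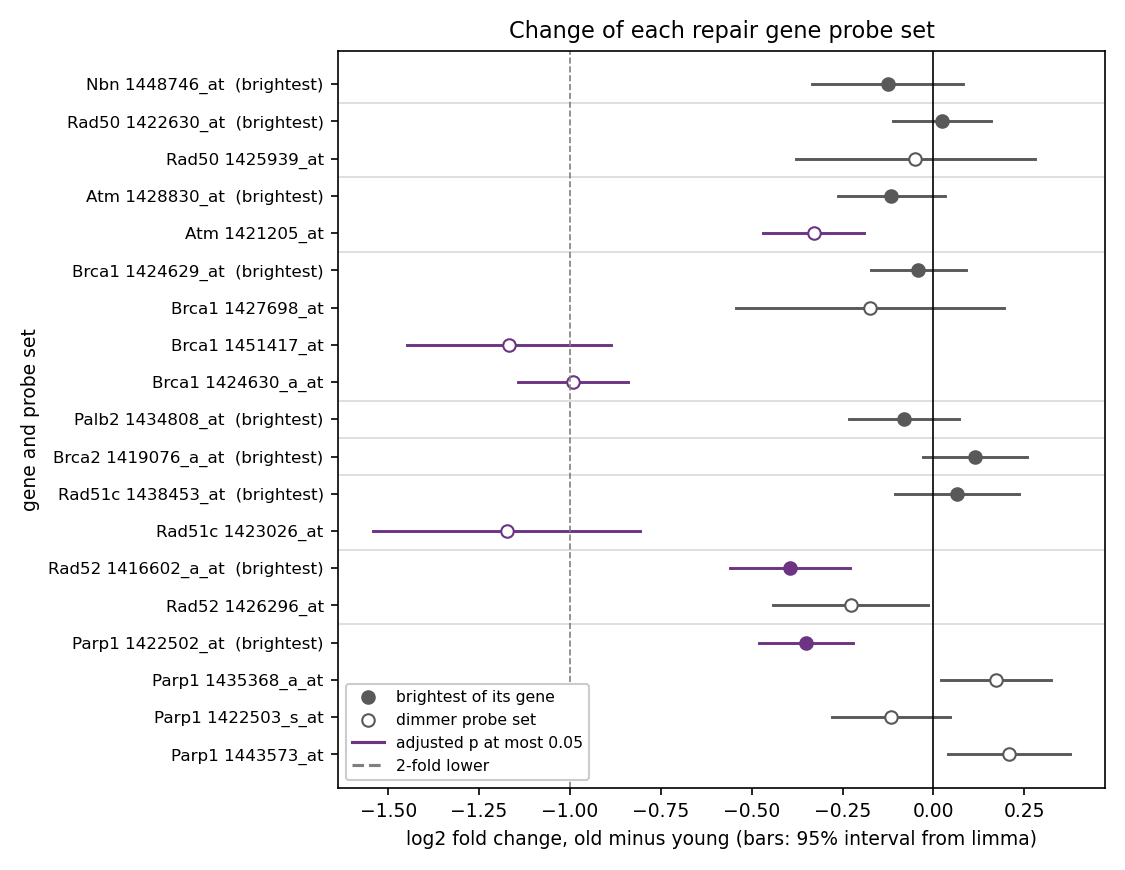
Log2 fold change (old minus young, horizontal axis) of each probe set with its 95% interval from limma, filled for the brightest probe set of a gene and open for dimmer ones, purple where the test was passed. The 6 purple points are all left of 0, the dashed line marks a 2-fold lower level, and the dimmer Parp1 probe sets 1435368_a_at and 1443573_at lie right of 0.

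Cell type markers changed in the same samples. The counts below stand beside all genes, of which 13.3% were lower and 10.1% were higher by the same test. Of 16 measured oocyte markers, 12 were lower in old follicles and none was higher, their median change was -0.25 on the log2 scale, and their summed intensity was between 28239 and 28635 in old and between 32831 and 33715 in young follicles. Of 12 granulosa cell markers 3 were lower (25%) and 1 was higher (8.33%), with a median of 0.0046. Their sums were between 29538 and 30363 in old and between 30090 and 30415 in young follicles. The defining genes Gdf9 and Zp3 of oocytes were at 12.06 and 11.42 in old and at 12.26 and 11.96 in young follicles, and Amh of granulosa cells was at 9.86 in old and 10.04 in young follicles (log2), all well above the medians of the arrays, which lay between 4.93 and 4.95. Of 18 macrophage markers 13 were higher and 1 was lower, with a median of 0.62 and sums between 905 and 938 in old and between 582 and 589 in young follicles. All 8 surface epithelium markers were higher, with a median of 0.84 and sums between 1179.8 and 1255 in old and between 817 and 851 in young follicles. Of 8 smooth muscle and pericyte markers 5 were higher and none was lower, with a median of 0.34 and sums between 1435 and 1480.2 in old and between 931 and 998 in young follicles. Of 12 endothelial markers 6 were higher and 1 was lower, with a median of 0.21 and sums between 609 and 646 in old and between 498 and 505 in young follicles. Of 12 theca and stroma markers 5 were higher and 1 was lower, with a median of 0.14 and sums between 9193 and 9212 in old and between 8702 and 9021 in young follicles. The steroid synthesis genes Star (1.87) and Cyp11a1 (1.34) of that list were called higher at a fold of 2, against 0.638% of all genes. Cyp17a1 (-0.11, adjusted p = 0.25) and Hsd3b1 (0.04, adjusted p = 0.58), also of steroid synthesis and in that list, did not pass. Of 12 lymphocyte markers 2 were higher (16.7%) and 1 was lower (8.33%), near the shares of all genes, with a median of 0.0024. The part of these shifts in the lower values of Parp1, Rad52, Atm, Brca1 and Rad51c was not tested.

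The shares of other repair genes that passed are set against those of all genes, of which 13.3% were lower and 10.1% were higher. Over the 109 other repair genes measured, 16 were lower (14.7%) and 4 were higher (3.67%) by the test of their brightest probe set, so the lower share was near that of all genes and the higher share was below it. Their median change was -0.02 on the log2 scale, and none reached a fold of 2. These 109 leave out the 9 genes, but each list below also counts those of the 9 that belong to it. In end resection and the break-binding complex, none of 6 genes passed. Exo1, a nuclease that trims ends, came nearest at -0.16 (adjusted p = 0.095), and Blm, a helicase, was at 0.14 (adjusted p = 0.14). In the BRCA1 complexes, 2 of 10 were lower (20%, against 13.3% of all genes), Brcc3 (-0.49, standard error 0.06, adjusted p = 0.0018), which removes ubiquitin chains at breaks, and Topbp1 (-0.24, adjusted p = 0.030), an activator of the kinase ATR.

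Of 17 meiotic recombination genes, 3 were lower (17.6%, against 13.3% of all genes) and 1 was higher (5.88%, against 10.1%). The lower ones were Sycp1 (-0.55, adjusted p = 0.0057) and Sycp2 (-0.22, adjusted p = 0.021) of the synaptonemal complex and Psmc3ip (-0.22, adjusted p = 0.042), which acts in the pairing of chromosomes. Sycp1 was dim, at 3.49 in old and 4.03 in young follicles (log2), below the medians of the arrays. The meiotic cohesin gene Rec8 (0.25, adjusted p = 0.047) was higher. Of 16 resolvase and SMC5/6 genes only Smc6 passed (6.25%), and it was lower (-0.40, standard error 0.06, adjusted p = 0.0037).

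The other routes of repair had from 15.4% to 26.7% of their genes lower and at most 7.69% higher, in lists of 10 to 15 genes, against 13.3% lower and 10.1% higher among all genes. In the Fanconi anemia pathway, which clears crosslinks, Fancl (-0.30, adjusted p = 0.018) and Ube2t (-0.23, adjusted p = 0.032), which together place ubiquitin on the pathway's central complex, were lower and Fanca (0.26, adjusted p = 0.017) was higher, out of 13 genes. Of 10 genes of non-homologous end joining, the route that rejoins ends directly, Lig4 (-0.33, adjusted p = 0.012) and Xrcc5 (-0.22, adjusted p = 0.021) were lower. In the list of single-strand break repair, 4 of 15 were lower. Pcna, the sliding clamp of DNA polymerases, was at 11.10, 11.05 and 11.05 in old follicles, against 11.97, 11.82 and 11.79 in young follicles, far apart, with a change of -0.79 (standard error 0.06, adjusted p = 3.3e-04). Parp1, Aptx (-0.31, adjusted p = 0.020), which cleans blocked ends, and Lig3 (-0.27, adjusted p = 0.020), a ligase, were the others.

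Genes of damage signaling and of its outputs, in lists of 15 to 23 genes, passed as lower in smaller shares than all genes by their brightest probe sets. Among all genes 13.3% were lower and 10.1% were higher. The shares were 6.67% lower and 6.67% higher for signaling, 6.67% and 13.3% for targets of p53, and 8.70% and 13.0% for S phase and proliferation. Over all probe sets of these lists, in the same order, 13.3%, 8% and 11.3% were lower, against 13.8% of all probe sets. Higher were 6.67%, 20% and 11.3%, against 8.95%. Of 15 signaling genes, Rad1 (-0.61, standard error 0.06, adjusted p = 0.0011), part of a checkpoint clamp, was lower, and the kinase Chek2 (0.22, adjusted p = 0.036) was higher. Among 15 targets of p53, Btg2 was the only one called at a fold of 2, at 8.79, 8.91 and 8.85 in old follicles, against 6.87, 6.93 and 6.81 in young follicles (1.98, standard error 0.06, adjusted p = 2.9e-06). The cell cycle inhibitor Cdkn1a was higher (0.43, adjusted p = 0.013) and Gadd45a was lower (-0.42, adjusted p = 0.0075). Of 23 genes of S phase and proliferation, 2 were lower and 3 higher, with a median of 0.0046. Ccne2 (-0.59, adjusted p = 0.0033) and Cdk1 (-0.38, adjusted p = 0.0077) fell, while Rrm2 (0.33, adjusted p = 0.0039) and Mki67 (0.29, adjusted p = 0.012) rose.

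**Figure D4:**
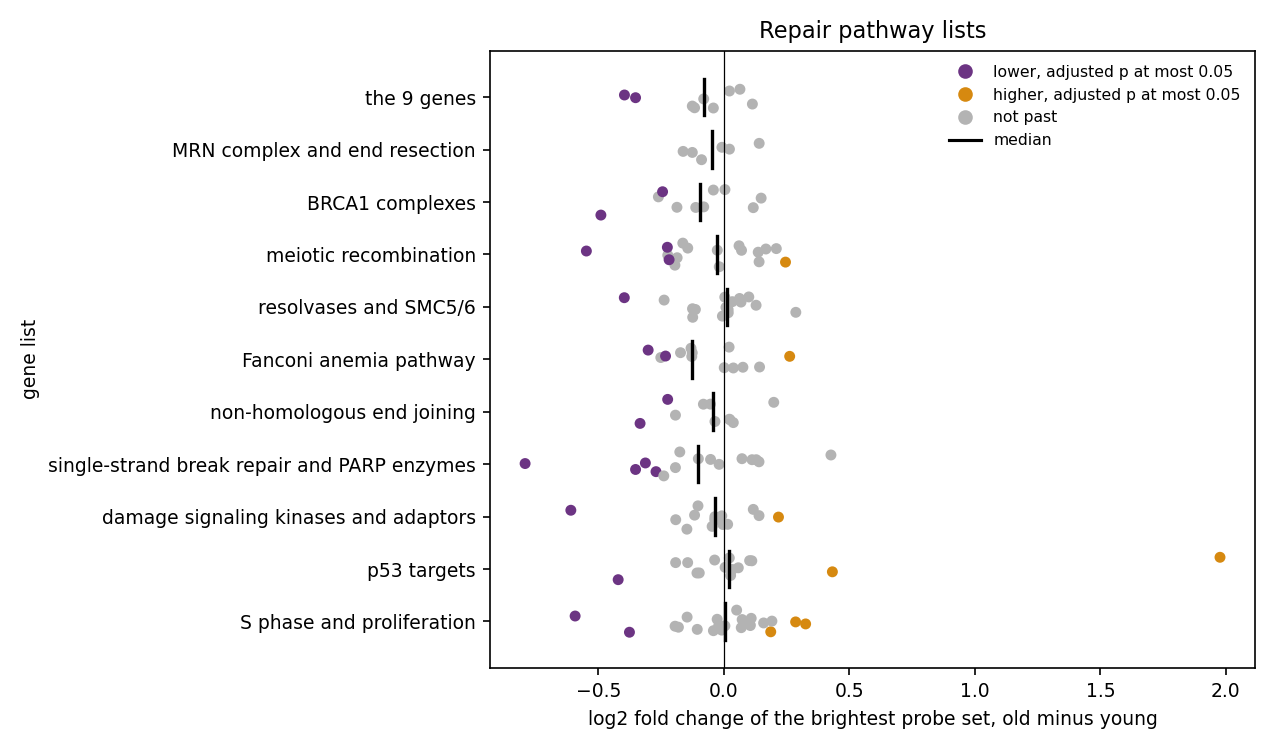
Log2 fold change of the brightest probe set (old minus young, horizontal axis) for each gene of the 9 and of 10 repair and cell cycle lists, purple for lower and orange for higher where the test was passed, gray otherwise, with the median as a black bar. The medians lie between -0.13 and 0.02, and the point far to the right is Btg2.

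Dimmer probe sets of other repair genes were counted too. Over the 217 probe sets of the 109 other repair genes, 35 were lower (16.1%, against 13.8% of all probe sets) and 12 were higher (5.53%, against 8.95%). At a fold of 2, 3 were called lower and 1 higher, against 0.552% and 0.466% of all probe sets, and none of these was the brightest of its gene. These 4 are named after their values were seen. Exo1 stood at -1.08 in the dimmer and -0.16 in the brightest probe set, Usp1, which reverses Fanconi ubiquitin marks, had -1.13 and -0.13, and Rpa2, a subunit of the single-strand binding protein, had -1.02 and -0.02. Parp3, a relative of Parp1, went the other way with 1.88 in the dimmer probe set. The brightest of Parp3 had 0.43 and did not pass (adjusted p = 0.085). Both were below the medians of the arrays. The dimmer was at 4.65 in old and 2.77 in young follicles, and the brightest at 3.96 and 3.54 (log2).

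The genes whose brightest probe sets followed those of Brca1 and Parp1 most closely over the 6 arrays were found by Pearson's r. For Brca1 these were Tars (0.996), Exoc7, Bsdc1, Carm1 and Iars2 (0.988). For Parp1, the member with the smallest p among the 9, they were Zfp207 (0.9994), Ube2w, Gorasp2, Ttc17 and Oosp3 (0.998). With 6 arrays in 2 groups, and 18193 genes searched, such values describe likeness and are given without a test. Both probe sets were lower in every old sample than in any young one, so genes picked for following them tend to be lower too. The log2 fold changes of the 10 genes lay between -0.81 for Ube2w and -0.06 for Bsdc1.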

How the data were processed

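RNA of secondary follicles was measured on 6 arrays, 3 old and 3 young. The authors made the values with RMA, for which the sources used here give no version, and deposited intensities on a linear scale, and log2 of these was taken here. Probe sets were named from the array's annotation table, with RefSeq (GRCm38.p6) used to update symbols for 99.1% of gene IDs. Left out were 932 with more than 1 symbol, 9211 not listed and 64 controls, most of them among those not listed. Old and young samples were compared by the moderated test of limma 3.58.1 (R 4.3.3), two-sided with Benjamini-Hochberg adjustment, over 34945 probe sets and over 18193 genes, each read by its brightest probe set (highest mean of the 6 arrays). Calls used the study's limits of 0.05 and a fold of 2 or more, with limma's adjusted p in place of the study's q-value from SAM. Differences between probe sets of a gene were fitted on dimmer minus brightest values per array. SAM, which the study used, was written anew with 20 assignments of the labels as an alternative. The steps were tested on simulated data. The members and lists were chosen with earlier results of these data known. Some items are not reported here. In each list up to 4 genes with the smallest p are named. Arrays have no read depth, and their number limits the precision, the typical SD within a group being 0.0997 on the log2 scale. The scan data were not analysed here, so background correction could not be varied.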

Additional observations from a re-analysis of the deposited data

How the results depend on the processing

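The count of lower probe sets was 6, as in the report, under SAM, quantile normalization, cyclic loess, trend and robust priors, array weights, an added 16, and without shared probe sets. Without probe sets below the median intensity of 5.38, the dim Brca1, Rad51c and Rad52 probe sets were not tested, so 2 passed lower, 2 higher and 0 were called, and 1 gene was lower. With 16 added, 0 were called lower and 2 passed higher. After quantile normalization and cyclic loess 3 were called lower, as 1424630_a_at of Brca1 then passed a fold of 2 (-1.05 and -1.04), and 2 to 3 with a sample left out, 3 without old replicate 1, young replicate 1 or young replicate 2. Quantile normalization, cyclic loess and trend with robust priors also gave 2 higher, both of Parp1. Among all probe sets, quantile normalization gave 3885 lower and 3822 higher, and cyclic loess gave 3949 lower and 3762 higher. The test of the report gave 4836 lower and 3129 higher, so its excess of lower probe sets mostly went after these normalizations. With trend and robust priors the excess stayed, at 6167 lower and 3849 higher. Averaging all probe sets of a gene gave 4 lower genes, Brca1 (-0.59), Rad51c (-0.55), Rad52 (-0.31) and Atm (-0.22). Leaving out each sample gave 0 to 1 higher probe sets, 1443573_at of Parp1 at 0.27 without young replicate 3, and 1 to 2 lower genes. Without old replicate 1, 1427698_at of Brca1 also passed (-0.38, adjusted p = 0.021).

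Changes near 0 turned sign. The brightest Brca1 probe set was at 0.02 after quantile normalization (0.017) and cyclic loess (0.020). Over the samples left out, the brightest of Rad50 lay between -0.0051 and 0.0451, its dimmer one between -0.173 and 0.106, and the brightest of Rad51c between -0.0021 and 0.103. None of these passed the test. Over all probe sets, 3222 were lower and 1970 higher without old replicate 3, and 1926 higher without young replicate 2, against 4836 lower and 3129 higher with all samples.

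Same-numbered samples deviated together with r of 0.065, 0.014 and 0.043, so the numbers were not taken as pairs. With the replicate number as a block, 6 member probe sets were lower, 2 of them called, and 2 genes were lower, as without it.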
